A study of Oryctolagus cuniculus with 16 samples.

Results

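The small leucine-rich proteoglycan (SLRP) genes analysed here were *DCN*, *BGN*, *LUM*, *FMOD*, *OGN*, *OMD*, *ASPN*, *PRELP*, *KERA* and *ECM2*, taken by gene symbol. They were chosen with earlier results of these data known. All 10 were among the 20255 genes of the count table, and all 10 passed the low-count filter that left 15305 genes for testing. Each of the 10 symbols also matched by gene identifier in a RefSeq gene table. The annotation columns of the count table named a leucine-rich repeat domain for 7 of the 10 genes, placed *DCN* and *LUM* in the KEGG pathway of proteoglycans in cancer, and placed *DCN* and *FMOD* in that of TGF-beta signaling.

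SLRPs are secreted core proteins built around leucine-rich repeats, and several of them carry chondroitin, dermatan or keratan sulfate chains. They bind collagen fibrils and set fibril diameter and spacing, and several bind growth factors of the TGF-beta family or receptors of innate immunity. In a growing femoral head they are made by chondrocytes of the articular and growth cartilage, by osteoblasts and by fibroblasts. The family is divided into classes by sequence. Decorin (*DCN*), biglycan (*BGN*), asporin (*ASPN*) and *ECM2* belong to class I. Lumican (*LUM*), fibromodulin (*FMOD*), *PRELP*, keratocan (*KERA*) and osteoadherin (*OMD*) belong to class II, and osteoglycin (*OGN*) belongs to class III.

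The libraries were total RNA-seq of femoral head tissue of 5 rabbits labelled Perthes' disease and 3 rabbits labelled wild type, called control here. For the Perthes group, immature rabbits were operated on at the hip at 8 weeks of age, and their epiphysis was deprived of blood by a permanent elastic tie around the femoral neck and by division of the ligamentum teres. The age of the control rabbits, whether they had a sham operation and the interval between operation and collection are not given in the sources used here. Markers of cartilage, bone and marrow were all present in the libraries, and which regions of the head were taken is not given in the sources used here. In such bulk tissue, fewer cells of a type and less RNA per cell cannot be told apart.

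Libraries held 27331725 to 29461482 counts in the Perthes group and 26757087 to 28783082 in the control group. Of all genes tested, 951 were called higher and 1356 lower in the Perthes group, a call being an adjusted p below 0.05 from the edgeR quasi-likelihood test. These were 6.21% and 8.86% of the genes tested, and with library totals in place of TMM scaling they were 4.43% and 11.1%. Levels are given as CPM, the counts relative to the library total after TMM scaling, and they are compared between rabbits and not between genes because transcript lengths were not available here.

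None of the 10 SLRP genes was called higher and none lower by edgeR, beside 6.21% and 8.86% of all genes tested. Their fitted log2 fold changes of Perthes over control were above 0 for 8 of 10, beside 51.6% of all genes, and the median of the 10 was 0.86, beside 0.02 for all genes. The log2 fold changes of *ASPN*, *LUM*, *ECM2* and *OGN* were above 1, as were those of 8.23% of all genes, and that of *KERA* was below -1, as were those of 10.8%. At an unadjusted p below 0.05 the edgeR test held 3 members that were higher (*LUM*, *ECM2* and *ASPN*) and 0 that were lower, beside 15.3% and 16.6% of all genes. DESeq2 called the same 3 genes higher and 0 lower at an adjusted p below 0.05, beside 9.74% and 11.0% of the genes it tested. The Perthes and control rabbits did not overlap for *LUM* and *ASPN*, both with the Perthes rabbits higher, and 11.2% of all genes were apart in that direction and 13.9% in the other.

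**Figure D1:**
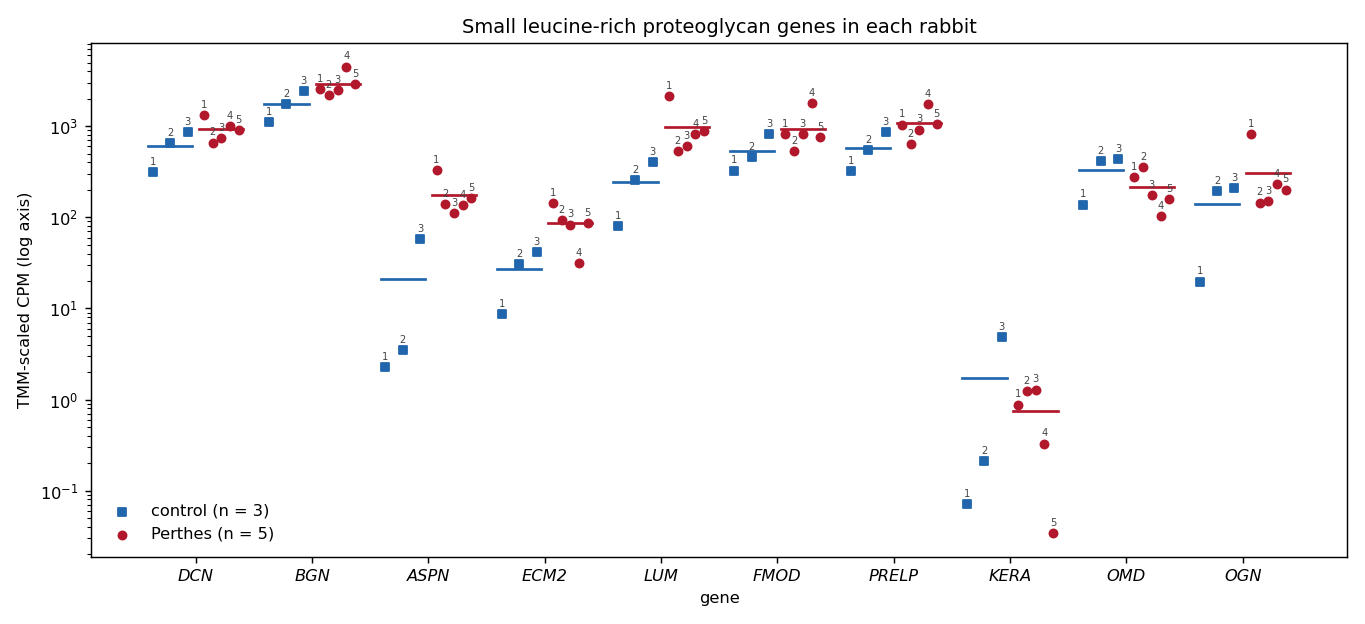
Level of each SLRP gene in each rabbit, in TMM-scaled CPM on a log axis. Squares are the 3 control rabbits, circles the 5 Perthes rabbits, small digits the rabbit numbers and horizontal bars the group means. The groups are apart for *LUM* and *ASPN* only, and control 1 is the lowest control for every gene.

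Together the 10 genes took 0.498% to 1.02% of the counts of a Perthes library and 0.235% to 0.638% of those of a control library. Their summed level was 9451, 5309, 6090.0, 10350.3 and 7115 CPM in Perthes rabbits 1 to 5. It was 2311, 4308 and 6109 CPM in control rabbits 1 to 3, so that control 3 lay above Perthes rabbits 2 and 3 while control 1 lay below all others.

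In class I, *DCN* (gene 100009171) encodes decorin, which binds type I collagen and TGF-beta. It stood at 1318, 660.3, 742, 1008 and 914 CPM in Perthes rabbits 1 to 5 and at 314, 654 and 861 CPM in control rabbits 1 to 3. Perthes rabbits 2 and 3 were below control 3, and the groups overlapped. The mean was 928 ± 257 CPM (SD, n = 5) in the Perthes group and 609.8 ± 276 CPM (SD, n = 3) in the controls. By edgeR this gave a log2 fold change of 0.61 with a standard error of 0.36 (95% confidence interval -0.20 to 1.41, adjusted p = 0.274).

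*BGN* (gene 100008663) encodes biglycan, a chondroitin or dermatan sulfate proteoglycan that in soluble form is a ligand of TLR2 and TLR4. Its level was 2572, 2211, 2495, 4502 and 2903 CPM in the Perthes rabbits and 1100.5, 1749 and 2416 CPM in the controls. Perthes rabbit 4 was highest, and only Perthes rabbit 2 was below the highest control. Its log2 fold change by edgeR was 0.74 (95% confidence interval -0.03 to 1.51, adjusted p = 0.171). The level of *BGN* relative to *DCN* in the same library does not depend on scaling, and its log2 value was 0.96, 1.74, 1.75, 2.16 and 1.67 in the Perthes rabbits and 1.81, 1.42 and 1.49 in the controls. Perthes rabbits 1 and 4 gave the lowest and the highest ratio of all. The group means differed by 0.085 (1.66 ± 0.43 and 1.57 ± 0.21, SD), and an exact two-sided permutation test gave p = 0.75, where 0.0357 is the smallest p that 5 and 3 rabbits allow.

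*ASPN* (gene 103348342) encodes asporin, which carries an aspartate-rich stretch in place of a sugar chain and competes with decorin for collagen. It had the largest log2 fold change of the 10 genes. The Perthes rabbits were at 331, 139, 110.5, 136 and 162 CPM, and the controls at 2.29, 3.45 and 57.3 CPM. All Perthes rabbits were above all controls, but control 3 held 91.4% of the control counts (64, 98 and 1724 counts in controls 1 to 3). The edgeR log2 fold change was 3.06 with a standard error of 1.05 (95% confidence interval 0.69 to 5.43), and the adjusted p = 0.0795 became 0.0183 by DESeq2. Without control 3 the log2 fold change was 5.93 (adjusted p = 0.0190 from edgeR). With each of the 8 rabbits left out in turn it ran from 2.53 to 5.93, with an edgeR adjusted p of 0.0190 to 0.192. An exact two-sided permutation test of log2 CPM gave p = 0.0357, the smallest possible, unadjusted for the 10 members.

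*ECM2* (gene 100350542) encodes a matrix protein with repeats like those of decorin. It was at 142, 92.5, 83.4, 31.3 and 85.9 CPM in the Perthes rabbits and at 8.71, 30.8 and 41.4 CPM in the controls. Perthes rabbit 4 lay between controls 2 and 3, while the other 4 Perthes rabbits were above all controls. A log2 fold change of 1.69 was fitted (95% confidence interval 0.41 to 2.97, adjusted p = 0.0740 by edgeR and 0.0106 by DESeq2), and without Perthes rabbit 4 it was 1.90 (adjusted p = 0.0334 from edgeR). With each of the 8 rabbits left out in turn it ran from 1.27 to 2.14, with an edgeR adjusted p of 0.0334 to 0.172. A second gene, LOC103345588, is also described as extracellular matrix protein 2 in the count table. In the RefSeq gene order it lies at another place, beside *BGN*. Reads of these genes may have been shared, which was not tested. LOC103345588 was at 55.0 to 96.0 CPM in the Perthes group and 33.0 to 75.9 CPM in the controls, with a log2 fold change of 0.22 (adjusted p = 0.637 from edgeR).

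In class II, *LUM* (gene 100008665) encodes lumican, a keratan sulfate proteoglycan that limits the lateral growth of collagen fibrils. Perthes rabbits 1 to 5 were at 2129, 535, 601, 816 and 878 CPM, and controls 1 to 3 at 79.9, 254 and 403 CPM. Each Perthes rabbit was above each control, and Perthes rabbit 1 was apart from the other 4. Mean levels were 992 ± 652 CPM (SD, n = 5) and 246 ± 162 CPM (SD, n = 3). Between them edgeR fitted a log2 fold change of 2.01 with a standard error of 0.63 (95% confidence interval 0.60 to 3.43), and the adjusted p = 0.0603 became 0.00329 by DESeq2. Without Perthes rabbit 1 it was 1.53. The exact two-sided permutation test over all 8 rabbits gave the smallest possible p = 0.0357, again unadjusted and fixed by the groups being apart.

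*FMOD* (gene 100008664) encodes fibromodulin, which shares its collagen site with lumican and is abundant in cartilage and tendon. It was at 827, 534, 817, 1779 and 763 CPM in the Perthes rabbits and at 325, 458 and 816 CPM in the controls. Perthes rabbit 4 was far above the rest, and control 3 was level with Perthes rabbits 1 and 3 and above rabbits 2 and 5. The log2 fold change was 0.83 (95% confidence interval -0.17 to 1.82, adjusted p = 0.229 from edgeR). As a description of the pair, *LUM* counts per *FMOD* count were 2.57, 1.00, 0.735, 0.459 and 1.15 in the Perthes rabbits and 0.246, 0.554 and 0.494 in the controls. The ratio of Perthes rabbit 4 lay among the controls, and the other 4 were above them.

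*PRELP* (gene 100354305) encodes a protein with a basic end that binds heparan sulfate and links basement membranes to collagen. Its levels were 1039, 636, 916, 1743 and 1049.6 CPM in the Perthes rabbits and 323, 550.1 and 863 CPM in the controls. Only Perthes rabbit 2 was below control 3. The log2 fold change was 0.90 (adjusted p = 0.157 from edgeR), with a 95% confidence interval from just below 0 to 1.79.

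*OMD* (gene 100350963) encodes osteoadherin, a keratan sulfate proteoglycan of mineralized bone made by osteoblasts. It was at 277, 356, 174, 103 and 159 CPM in the Perthes rabbits and at 138, 413 and 439 CPM in the controls. Controls 2 and 3 were above all Perthes rabbits, while control 1 was below all Perthes rabbits but rabbit 4. The log2 fold change was -0.63 (95% confidence interval -1.67 to 0.42, adjusted p = 0.382 from edgeR).

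*KERA* (gene 100009022) encodes keratocan, known from the corneal stroma, and was close to the limit of detection. Its counts were 26, 33, 35, 9 and 1 in Perthes rabbits 1 to 5 and 2, 6 and 147 in controls 1 to 3. A count of 3 is the upper limit that a count of 0 allows, and Perthes rabbit 5 and control 1 were below it. Control 3 held 94.8% of the control counts, and the log2 fold change of -1.20 (95% confidence interval -3.88 to 1.48, adjusted p = 0.516 from edgeR) was 2.37 without that rabbit (adjusted p = 0.215 from edgeR).

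*OGN* (gene 100008835), the class III member, encodes osteoglycin, a matrix protein of bone and other connective tissue. It was at 815, 145, 149.9, 231 and 202 CPM in the Perthes rabbits and at 19.7, 196 and 208 CPM in the controls. Perthes rabbit 1 was far above and control 1 far below the other 6 rabbits, which lay between 145 and 231 CPM. Of all *OGN* counts in the Perthes group, 54.4% came from rabbit 1. The log2 fold change was 1.13 (95% confidence interval -0.72 to 2.98, adjusted p = 0.376 from edgeR) and was 0.37 without Perthes rabbit 1.

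**Figure D2:**
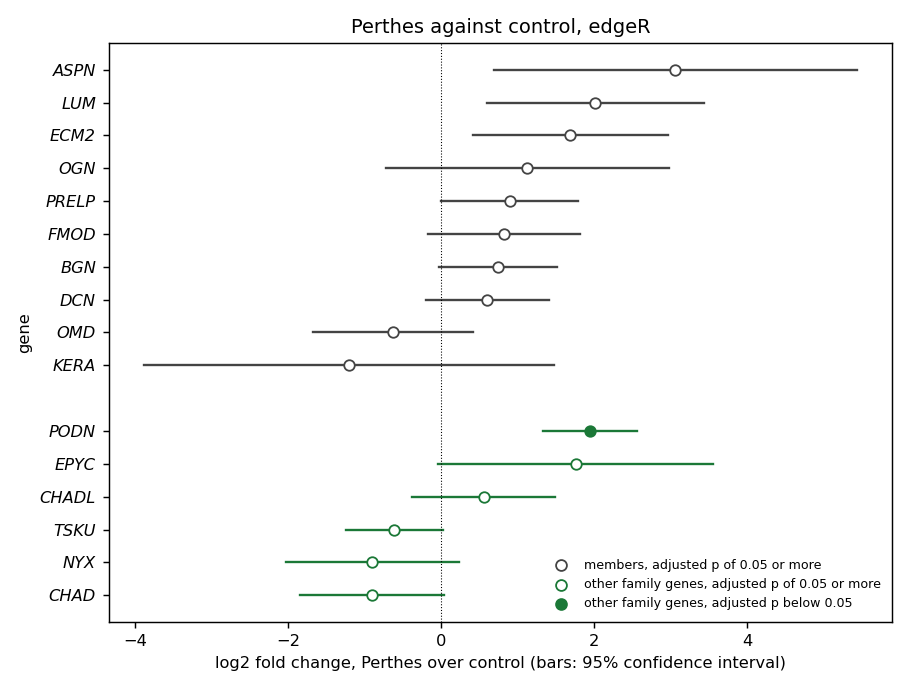
Log2 fold change of Perthes over control for the 10 SLRP members (grey) and for 6 other genes of the family (green), with 95% confidence intervals from the edgeR fit. Filled circles have an adjusted p below 0.05, which holds for *PODN* at 1.95 and for no member. Among the members, the intervals of *ASPN*, *LUM* and *ECM2* lie above 0.

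The 10 genes shared an order among the control rabbits. In that group, rabbit 1 was lowest, rabbit 2 intermediate and rabbit 3 highest for 10 of 10 members, an order held by 26.9% of all genes tested. Control 1 was the lowest of all 8 rabbits for 8 of 10 members, beside 23.9% of all genes. The exceptions were *OMD*, lowest in Perthes rabbit 4, and *KERA*, lowest in Perthes rabbit 5. Control 1 also had the highest summed level of 6 neutrophil markers, 22115 CPM beside 6954 and 6698 CPM in controls 2 and 3. Whether the cell makeup of that sample had a part in its low SLRP levels was not tested.

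Among the Perthes rabbits the members fell into patterns that differed in which rabbit was highest. Rabbit 1 was highest for *DCN*, *LUM*, *OGN*, *ASPN* and *ECM2*, whereas rabbit 4 was highest for *BGN*, *FMOD* and *PRELP* and lowest for *ECM2* and *OMD*. Rabbit 2 was highest for *OMD*. Taking deviations of log2 CPM from the group means over the 8 rabbits, the Pearson correlation was 0.97 for *BGN* with *PRELP*, 0.97 for *FMOD* with *PRELP* and 0.95 for *BGN* with *FMOD*. It was also 0.97 for *DCN* with *LUM*, 0.97 for *LUM* with *OGN* and 0.95 for *DCN* with *OGN*. Spearman's rho for these 6 pairs ran from 0.76 (*FMOD* with *PRELP*) to 0.98. For the 9 pairs across these sets the Pearson correlation ran from 0.46 (*FMOD* with *OGN*) to 0.80 (*DCN* with *PRELP*), with a median of 0.62. Spearman's rho across them ran from 0.60 to 0.76 (*DCN* with *BGN*), the latter as high as for *FMOD* with *PRELP*. The sets hold the 6 highest Pearson values of all pairs, so that lower values across them follow from the choice of pairs. *ASPN* and *ECM2*, also highest in rabbit 1, correlated with *DCN*, *LUM* and *OGN* at 0.62 to 0.76 (Pearson). *OMD* and *ECM2* deviated together at 0.89, although their fold changes had opposite signs. These values describe 8 libraries, of which control 1 and Perthes rabbits 1 and 4 lie far from the others, and all genes of a library share its scaling.

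**Figure D3:**
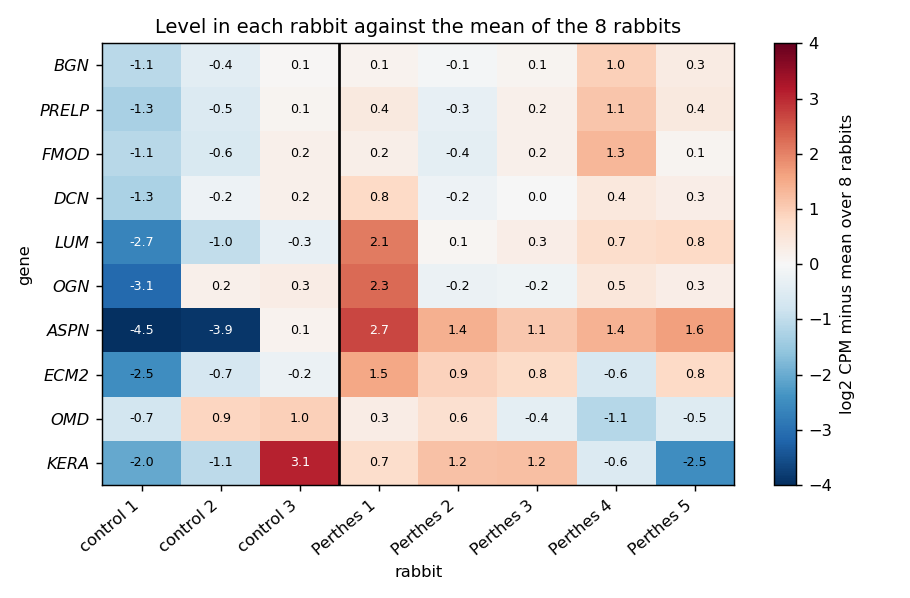
Log2 CPM of each SLRP gene in each rabbit minus that gene's mean over the 8 rabbits, controls left of the line and Perthes rabbits right of it. Red is above and blue below the mean. Control 1 is blue for every gene, Perthes rabbit 4 is the reddest Perthes rabbit for *BGN*, *PRELP* and *FMOD*, and Perthes rabbit 1 for *DCN*, *LUM*, *OGN*, *ASPN* and *ECM2*.

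The summed level of 9 chondrocyte markers was 39770.1, 44001, 81940.1, 154454 and 65411 CPM in Perthes rabbits 1 to 5 and 49801, 47298 and 69155 CPM in the controls. Among the Perthes rabbits, rabbit 4, the highest for *BGN*, *FMOD* and *PRELP*, was also the highest for 9 of 9 of these markers. The share of all genes highest in that rabbit was not computed. *MATN1*, 1 of the 9, was under the low-count filter, at 0.0374 to 0.182 CPM in the Perthes rabbits. Type II collagen (*COL2A1*) made up 72.9% to 91.1% of the sum, and the low sum of rabbit 1 was that of *COL2A1*. Rabbit 1 was the lowest Perthes rabbit for *COL2A1* and *ACAN*, and rabbit 2 for 6 of the other markers, *MATN1* among them. Without *COL2A1* the sum was 10776, 7304, 13505, 37925 and 14011 CPM in Perthes rabbits 1 to 5 and 6994, 4189 and 11728 CPM in the controls. The same sum for 5 macrophage markers was lowest among Perthes rabbits in rabbit 4, at 702 CPM, and highest in rabbit 1, at 6789 CPM. *GPNMB* alone was at 314 CPM in rabbit 4 and 5488 CPM in rabbit 1. Each of these macrophage markers was lowest among the Perthes rabbits in rabbit 4, but *CD68* and *CSF1R* were highest in rabbit 5. The part of these cell types in the SLRP patterns was not tested.

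Several members are neighbours in the genome. In the gene order of the RefSeq rabbit assembly mOryCun1.1, *ECM2*, *ASPN*, *OMD* and *OGN* follow each other, as do *KERA*, *LUM* and *DCN* beside *EPYC*, and *FMOD* and *PRELP* beside *OPTC*. The 10 pairs of members within a cluster had a median correlation of deviations of 0.64 (0.42 to 0.97), and the 35 other pairs one of 0.56 (-0.16 to 0.97). The range within clusters lay inside that of the other pairs. The 4 genes of the *ECM2* cluster had log2 fold changes of 1.69, 3.06, -0.63 and 1.13, and those of *KERA*, *LUM* and *DCN* were -1.20, 2.01 and 0.61. The neighbours *FMOD* and *PRELP* were alike at 0.83 and 0.90.

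Over the 8 rabbits, and among 12309 named genes compared, the gene with the log2 CPM pattern most like that of *LUM* was *DSEL*, a dermatan sulfate epimerase, with a Pearson correlation of 0.996. *SLC31A1* was the most alike for *DCN* (0.996), *TWSG1* and *COL15A1* for *BGN* (0.989 and 0.988) and *PSD3* for *FMOD* (0.985). For *ASPN* they were *PHTF1* (0.991), the type III collagen gene *COL3A1* (0.989) and *MSX2* (0.988). *PRELP* had *TNFRSF12A* and *CAV1* (0.987 each) and, as the third, *BGN* (0.985). The most alike gene was *NAALADL2* for *OGN* (0.991), *SLC25A27* for *ECM2* (0.991), *SCN2A* for *OMD* (0.946) and *GRIA3* for *KERA* (0.923). These correlations are over 8 libraries that share their scaling among genes, and are given as a description.

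Of 8 further genes of the family, 7 were listed and 6 tested. Of these 6, 1 was called higher and 0 lower, beside 6.21% and 8.86% of all genes. The called gene was *PODN* (gene 100347416), whose protein podocan binds collagen. It was at 29.7, 26.4, 30.7, 16.6 and 22.7 CPM in the Perthes rabbits and at 6.29, 4.83 and 8.44 CPM in the controls, and the groups were apart. It rose with a log2 fold change of 1.95 (adjusted p = 0.0118 by edgeR, standard error 0.27), and without control 2 the adjusted p was 0.0519. *EPYC*, which encodes epiphycan of growth cartilage, had counts of 29 to 98 in the Perthes rabbits and 1 to 42 in the controls, and a log2 fold change of 1.76 (adjusted p = 0.163). *CHAD*, for the cartilage and bone protein chondroadherin, had one of -0.90 (adjusted p = 0.174) and its relative *CHADL* one of 0.56 (adjusted p = 0.383). *NYX*, with 3 to 20 counts per library, and *TSKU* had -0.90 and -0.61 (adjusted p = 0.250 and 0.168), all by edgeR. *OPTC* held 0 to 2 counts in every library and was not tested.

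Genes that act on SLRPs or with them were followed in 7 lists. The lists were chosen with earlier results of these data known, so that their counts are a description. Of 87 tested genes in these lists, which include the further family genes above, 27 were called higher and 0 lower by edgeR, beside 6.21% and 8.86% of all genes, with a median log2 fold change of 0.58 beside 0.02 for all genes. At an unadjusted p below 0.05, 42 were higher (15.3% of all genes) and 0 lower (16.6%), and DESeq2 called 36 higher (9.74%) and 0 lower (11.0%). The count of 27 was 13 without Perthes rabbit 3, 12 without Perthes rabbit 5, 4 without control 1 and 0 without control 2 (35 then had an unadjusted p below 0.05). The share of all genes called higher fell as well, to 2.53%, 2.30%, 0.467% and 0% in the same order.

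Collagens, the ligands of most SLRPs, had 6 of 16 tested genes called higher and 0 lower, beside 6.21% and 8.86% of all genes. Their median log2 fold change was 1.07. *COL3A1*, the fibrillar collagen of loose and repairing tissue, was at 20722, 11731, 12701, 16265 and 16010.4 CPM in the Perthes rabbits and at 780.1, 1633 and 6744 CPM in the controls. It rose with a log2 fold change of 2.34 (adjusted p = 0.0474), control 3 again being the highest control. *COL5A3* and *COL12A1*, a fibril-initiating and a fibril-associated chain, rose by 2.40 and 2.29 (adjusted p = 0.0160 and 0.0359), and *COL6A3*, *COL6A2* and *COL5A2* were also called. The main collagens of bone and cartilage were not: the log2 fold change was 0.15 for *COL1A1*, 0.20 for *COL1A2* and 0.34 for *COL2A1* (adjusted p = 0.842, 0.761 and 0.671, all by edgeR).

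**Figure D4:**
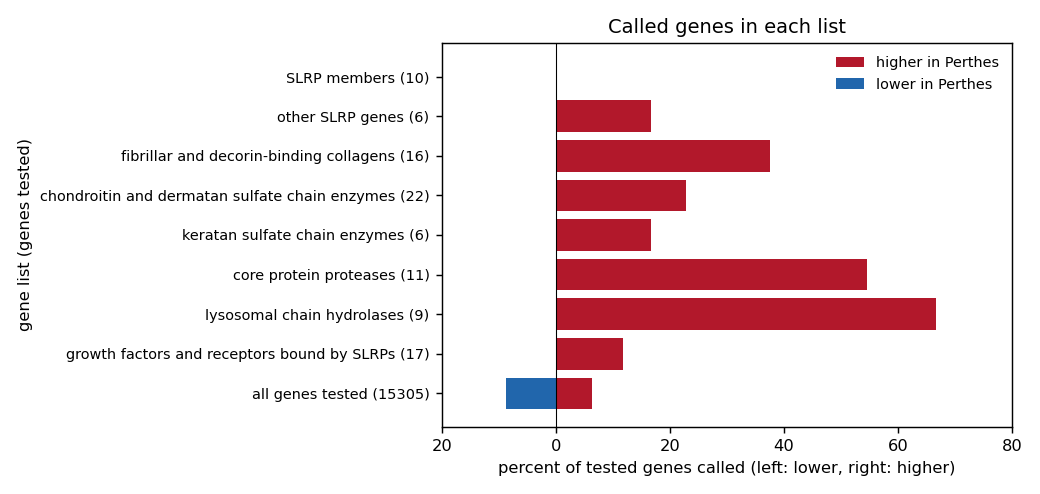
Percent of the tested genes of each list called higher (right) or lower (left) in the Perthes group by edgeR at an adjusted p below 0.05, with the number of genes tested in parentheses. No SLRP member was called. Called higher were 6 of 9 lysosomal hydrolases and 6 of 11 core protein proteases, beside 6.21% of all genes. Only the bar of all genes extends to the left.

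Among 22 tested enzymes of chondroitin and dermatan sulfate synthesis, 5 were called higher and 0 lower, beside 6.21% and 8.86% of all genes. Their median log2 fold change was 0.35. The epimerases *DSEL* and *DSE*, which turn chondroitin into dermatan sulfate, rose by 1.62 and 1.03 (adjusted p = 0.0363 and 0.0122 from edgeR). *DSE* was at 59.4 to 75.8 CPM in the Perthes rabbits and at 28.0 to 38.0 CPM in the controls, with the groups apart. The dermatan sulfotransferase *CHST14* rose by 0.79, and the chain polymerization genes *CHSY3* and *CHPF* rose by 1.02 and 0.81. Of 6 tested keratan sulfate enzymes only the sulfotransferase *CHST2* was called, and it was higher, as were 6.21% of all genes. It stood at 19.9 to 33.6 CPM in the Perthes rabbits against 7.33 to 9.54 CPM in the controls (log2 fold change 1.80, adjusted p = 0.0118 from edgeR).

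Proteases that cut SLRP core proteins had 6 of 11 tested genes called higher and 0 lower, beside 6.21% and 8.86% of all genes. Their median log2 fold change was 1.44. *HTRA1*, a serine protease that degrades decorin, biglycan and fibromodulin, was at 579, 533, 470.3, 1373 and 1086 CPM in the Perthes rabbits and at 162, 235 and 380.1 CPM in the controls (log2 fold change 1.64, adjusted p = 0.0422 from edgeR). *MMP14* and *MMP2*, which act in one activation cascade, rose by 1.44 and 1.19, and the aggrecanase *ADAMTS4* by 1.53. The largest changes were those of the macrophage elastase *MMP12* (10.03, adjusted p = 0.0173) and the stromelysin *MMP3* (8.17, adjusted p = 0.0258). Their control levels were low and uneven, at 0.0714, 0.141 and 4.99 CPM for *MMP12* and 0.0357, 0.0352 and 0.299 CPM for *MMP3*, with control 3 the highest for both. In control 1 this was 2 counts of *MMP12* and 1 count of *MMP3*. The 95% confidence intervals were wide, at 5.35 to 14.7 and 3.77 to 12.6. *MMP13*, which cleaves fibromodulin, had a log2 fold change of 1.38 with the groups apart (adjusted p = 0.0630), and *BMP1*, which removes the propeptide of biglycan, had one of 0.82 (adjusted p = 0.0648).

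Lysosomal hydrolases that take sulfated chains apart had 6 of 9 tested genes called higher and 0 lower, beside 6.21% and 8.86% of all genes. Their median log2 fold change was 1.21. *GUSB*, which encodes beta-glucuronidase, rose by 2.07 (adjusted p = 0.0294 from edgeR). It was lowest among the Perthes group in rabbit 4, at 79.2 CPM beside 241 to 452 CPM in the other 4. The controls were at 67.6 to 86.1 CPM, so that the groups overlapped. Rabbit 4 also had the lowest macrophage marker sum of the Perthes group, and the part of macrophages in these levels was not tested. Of 17 tested growth factors and receptors that SLRPs bind, 2 were called higher and 0 lower, beside 6.21% and 8.86% of all genes. They were the lipopolysaccharide coreceptor *CD14* at 2.37 and the endocytic receptor *LRP1* at 1.20 (adjusted p = 0.0397 and 0.0165). For *CD14* the groups overlapped, with Perthes rabbit 4 at 44.4 CPM and control 1 at 59.0 CPM. *TGFB1* was at 40.1 to 64.0 CPM in the Perthes rabbits and 55.6 to 60.4 CPM in the controls (log2 fold change -0.09, adjusted p = 0.739). The biglycan receptors *TLR2* and *TLR4* had log2 fold changes of 0.69 and 0.38 (adjusted p = 0.0955 and 0.587, all by edgeR).

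Marker lists of the cell types in a femoral head, also chosen with earlier results known, moved unequally between the groups. Beside the counts called in these lists, 6.21% of all genes tested were called higher and 8.86% lower. Of stromal fibroblast markers 3 of 9 were called higher (*COL3A1*, *POSTN* and *THY1*), with a summed level of 67539 to 157549 CPM in the Perthes group and 74075 to 93480.1 CPM in the controls. The bone collagen gene *COL1A1* made up 66.1% to 98.3% of that sum, and without it the sum was 13703 to 22894 CPM against 1291 to 7877 CPM, with the groups apart. Macrophage markers were called higher in 4 of 5, with sums of 702 to 6789 CPM against 352 to 367 CPM. *GPNMB* was the largest part of each Perthes sum, at 314 to 5488 CPM against 16.0 to 23.3 CPM in the controls. In Perthes rabbit 4, *CD68* and *CSF1R* were above all controls, *MRC1* (56.4 CPM) lay among them and *CD163* (32.7 CPM) below them. Smooth muscle and pericyte markers were called higher in 2 of 4, with sums of 188 to 479.5 CPM against 52.1 to 92.0 CPM. Marrow sums were lower. Called lower were 3 of 6 neutrophil markers (24.8 to 1775 CPM against 6698 to 22115 CPM), 1 of 6 erythroid markers (28.5 to 1851 CPM against 3907 to 4643 CPM) and 1 of 4 B cell markers (5.20 to 24.4 CPM against 24.8 to 41.7 CPM). In lists this short, 1 call says little beside the 8.86% of all genes. No chondrocyte marker of 8 tested, osteoblast or osteocyte marker of 9, endothelial marker of 5, adipocyte marker of 5, skeletal muscle marker of 3 or tendon marker of 2 was called by edgeR. The osteoblast and osteocyte sum, of cells that make *OMD*, was 1727 to 3095 CPM in the Perthes group and 1187 to 2324 CPM in the controls. Bone sialoprotein (*IBSP*) made up 18.8% to 56.5% of it, and without *IBSP* the sum was 867 to 1364 CPM against 956 to 1580.2 CPM, so that the order of the ranges turned. The median log2 fold change of this list was -0.14. *MATN1* and *TNMD*, defining genes of cartilage and tendon, were at or below 0.214 and 1.05 CPM in every library, and no listed marker was at 0 in all libraries. *COL1A1*, *COL3A1*, *COL2A1* and *COL11A1* stand in both a marker list and the collagen list. What these shifts contribute to the SLRP levels was not tested.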

How the data were processed

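Total RNA of 5 Perthes and 3 control femoral heads was depleted of ribosomal RNA and sequenced. Per the labels, the authors used HISAT2 2.0.4, RSEM 1.1.17 and HTSeq 1.99.2, and deposited expected counts per gene, not normalized, of which up to 10.7% per library were not whole. Another 8 columns repeat these values and were not used, and neither were the small RNA data. The third control, coded 3 but titled otherwise, was taken as control 3.

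Counts were rounded. Genes were filtered by filterByExpr, scaled by TMM and tested with edgeR 4.0.16 (quasi-likelihood F-test, limma 3.58.1, R 4.3.3), with Benjamini-Hochberg adjustment over 15305 genes. Standard errors are the log2 fold change over the root of F. The CPM precision was set by the spread between rabbits (biological coefficient of variation 0.361) except for *KERA*. Replicates are separate rabbits per the methods. Log2 CPM used a prior count of 2. Exact permutation tests used all 56 divisions. The pipeline was tested on simulated data.

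Members and lists were chosen with earlier results of these data known. Named genes were the members, listed family genes, up to 2 called genes per list and direction with the largest change, 12 preset genes and the 3 most alike genes per member, of which the text names at least the closest. Others were named after their values were seen. A called gene under this rule is not reported here. Alternatives were DESeq2 1.42.0, other scaling, filters and thresholds, a replicate block and leaving out each rabbit.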

Additional observations from a re-analysis of the deposited data

Results flagged for a closer look

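On the CPM scale, in 4 of the 10 genes, 1 Perthes rabbit lay farther from its nearest neighbour than Dixon's criterion for 5 values allows (a gap over 0.71 of the group's range). Perthes rabbit 1 was apart for *LUM* (2129 CPM, the next being 878), *OGN* (815 CPM, the next 231) and *ASPN* (331 CPM, the next 162), and Perthes rabbit 4 for *FMOD* (1779 CPM, the next 827). On log2 CPM, a scale added after seeing the data, only *OGN* passed this criterion (a gap of 0.729 of the range), and *LUM*, *FMOD* and *ASPN* did not (0.641, 0.637 and 0.654). Chance alone marks about 1 in 20 such groups of normally distributed values, and the 4 genes are not independent, since *LUM* and *OGN* deviated together across rabbits. The 3 controls were too few for this criterion, although control 3 held most of the control counts of *ASPN* and *KERA*.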

How the results depend on the processing

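No member was called higher by edgeR under other scaling, other filters, larger fold thresholds or a replicate block. The largest threshold was that of the paper, a log2 fold change beyond 2 at an adjusted p below 1e-05. At that threshold, with the replicate block and without control 2, 0% of all genes were called in either direction. These settings therefore could not call a member. DESeq2 called 3 members higher, and leaving out each rabbit gave 0 to 1, namely *ECM2* without Perthes rabbit 4 (8.36% of all genes were then called higher) and *ASPN* without control 3 (4.45%). No member was called lower under any of these alternatives. Of 153 values of single genes under the alternatives, 144 kept their direction and side of the threshold, 5 passed it, 2 no longer did and 2 changed sign. The sign changes were those of *KERA*, at 1.14 with the replicate block and 2.37 without control 3, over a leave-one-out range of -1.76 to 2.37, and the cause was not tested. With a minimum of 10 counts in every library *KERA* was not tested. The lost calls were those of *PODN*, at 2.18 with the replicate block (adjusted p = 0.0933 from edgeR) and 1.77 without control 2 (adjusted p = 0.0519). The log2 ratio of *BGN* to *DCN* differed by -0.041 to 0.258 between groups when each rabbit was left out, the negative value being that without Perthes rabbit 4. Of the 7 lists, 0 to 28 genes were called higher when each rabbit was left out, and 0 with the replicate block, where 37 had an unadjusted p below 0.05 and no gene of the table was called. Deviations of same-numbered rabbits correlated at -0.32, 0.16 and -0.24. With 3 such pairs and no other pairs beside them, these values cannot decide whether replicate numbers pair the rabbits. Scaling by library totals shifted the median of all genes from 0.02 to -0.06. Depth limited *KERA*, *EPYC*, *NYX*, *OPTC*, *MMP12*, *MMP3*, *MATN1* and *TNMD*, which, among others, held 3 counts or fewer in some libraries.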
